A study of Homo sapiens with 12 samples.

Results

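CDS peaks away from splice junctions are the eCLIP peaks that lay wholly inside 1 coding exon of a human mRNA. A peak was a member when it sat on the gene's strand inside a coding exon of the Ensembl canonical transcript, touched neither the start codon nor the stop codon, and had both ends more than 2 nt from every splice junction of that transcript. By this rule, 4697 of the 18128 peaks in the 4 deposited lists were members (25.9%), and they fell in 1499 genes. The rule used position only, so enrichment, sequence, exon length and place along the coding sequence (CDS) were not used to choose them.

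The study asked which cellular RNAs touch SpCas9, the Cas9 protein of Streptococcus pyogenes, when no guide RNA is supplied. HEK 293T cells, a human embryonic kidney line, were transfected with a plasmid for catalytically dead SpCas9 (dSpCas9) that carried either a V5 or a 3xFLAG tag, or with the empty vector. eCLIP crosslinks protein to RNA with UV light in living cells (here 2 exposures of 400 mJ/cm2), pulls down the tagged protein and sequences the RNA that stays with it. There were 12 libraries in 6 groups of 2: for each tag, the immunoprecipitate (IP), its size-matched input, and the IP of the same antibody from cells with the empty vector. The dSpCas9 was overexpressed from a plasmid, in a single cell line, and the fusion carried no nuclear localisation signal, which limits what these libraries say about Cas9 in other settings. Each list compared 1 IP with 1 control, and each peak had 1 enrichment value that already combined both replicates, so the spread between replicates could not be computed and no difference was tested.

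A coding exon is the stretch of a mature mRNA that ribosomes read, and translating ribosomes travel through it from the start codon to the stop codon. In human genes most internal exons are short, and a few genes carry very long coding exons, among them many zinc finger genes. Most histone genes have a single exon. The guide RNA that SpCas9 normally holds has a stem-loop in which a loop ends in GU and a stem follows, and a GU-loop:5nt-stem model describes that shape as a GU followed directly by a stem of 5 bases. A site needed a pairing probability below 0.7 at that U and above 0.5 at all 5 stem bases.

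The sequences under the highest peak over input at selected loci show what dSpCas9 was recovered with in coding exons. They were read from the GENCODE transcripts on hg38, run 5′ to 3′ and are RNA. Capitals mark the 7 bases of a GU-loop:5nt-stem. The first 5 come from among the most enriched loci found in all 4 lists, and the last 5 from the 5 longest coding exons with such a locus, with ZNF672 belonging to both sets.
H2AC11, chr6:27133387-27133411, plus strand: ggcgguguccugcccaacauucagg
ESRRA, chr11:64315032-64315063, plus strand: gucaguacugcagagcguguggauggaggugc
CCNG1, chr5:163439422-163439462, plus strand: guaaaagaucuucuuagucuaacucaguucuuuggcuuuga
ARPC1A, chr7:99354041-99354080, plus strand: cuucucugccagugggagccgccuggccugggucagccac
MARS1, chr12:57498214-57498259, plus strand: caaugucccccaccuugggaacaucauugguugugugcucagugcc
ZNF672, chr1:248847942-248848025, plus strand: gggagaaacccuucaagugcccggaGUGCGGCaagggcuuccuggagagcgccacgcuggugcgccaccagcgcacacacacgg
SPEN, chr1:15934330-15934529, plus strand: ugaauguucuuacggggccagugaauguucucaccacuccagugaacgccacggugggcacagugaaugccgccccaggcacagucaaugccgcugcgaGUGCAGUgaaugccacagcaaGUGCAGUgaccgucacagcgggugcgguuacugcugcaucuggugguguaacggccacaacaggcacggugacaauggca
ZNF74, chr22:20406408-20406499, plus strand: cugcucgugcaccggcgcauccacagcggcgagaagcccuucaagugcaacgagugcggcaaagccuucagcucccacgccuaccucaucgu
TTLL4, chr2:218737714-218737867, plus strand: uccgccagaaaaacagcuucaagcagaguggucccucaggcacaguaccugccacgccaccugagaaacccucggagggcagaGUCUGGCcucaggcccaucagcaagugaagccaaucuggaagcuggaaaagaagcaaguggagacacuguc
H6PD, chr1:9263520-9263630, plus strand: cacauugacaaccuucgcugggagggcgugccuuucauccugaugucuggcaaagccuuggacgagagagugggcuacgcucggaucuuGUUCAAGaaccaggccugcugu

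The first 5 of these peaks and the ZNF74 peak held no GU-loop:5nt-stem, and the other peaks from the longest exons held 1 or 2. The longer peaks have more room for a match. The SPEN peak held the most GU dinucleotides, 18 in 200 nt, and 2 of these met the model. The CCNG1 peak was the richest in A and U, with 34.1% GC, and ARPC1A the richest in G and C, with 70.0%.

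Members made up a different part of each list, from 21.2 to 31.7%. V5 over size-matched input held 1724 members of 6605 peaks (26.1%), and V5 over the empty vector IP held 952 of 3005 (31.7%). FLAG over size-matched input held 1604 of 6554 (24.5%), and FLAG over the empty vector IP held 417 of 1964 (21.2%). The share was thus highest in the V5 list over the empty vector IP and lowest in the FLAG list over the empty vector IP, with 95% Wilson intervals of 30.0 to 33.4% and 19.5 to 23.1%. These intervals cover counting error only, and several peaks can come from 1 gene. Of the remaining peaks, 3981 were coding peaks that reached or spanned a splice junction, and 6410 lay in 3′ untranslated regions. Depth per library is unknown from these lists.

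Enrichment is a log2 ratio, IP reads divided by control reads, and the lists hold no value under 3.00. Median enrichment of members was 3.56 (V5 over input), 3.63 (V5 over empty vector), 3.56 (FLAG over input) and 3.54 (FLAG over empty vector). Over all peaks of the same lists the medians were 3.61, 3.61, 3.63 and 3.59, so members lay slightly below the whole in 3 lists and slightly above it in V5 over the empty vector IP. Coding peaks at splice junctions had medians of 3.55, 3.61, 3.52 and 3.55. In the 335 genes that had both kinds of coding peak in V5 over input, the median difference between them was -0.01, with quartiles of -0.28 and 0.22, and members were the higher kind in 46.3% of those genes. For FLAG over input the difference was 0.00 in 337 such genes, with quartiles of -0.33 and 0.28. The difference between coding peaks inside an exon and at its edge was thus smaller than its spread between genes.

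Members differed more from all peaks in the share at the ceiling of the p-value. The deposited −log10 p-value stops at 400, and 7.60% of V5 members over input stood at that value, against 4.13% of all peaks in that list. For V5 over the empty vector it was 2.00% against 1.23%. The same shares were 8.73% and 5.26% for FLAG over input, and 11.5% and 4.58% for FLAG over the empty vector IP. Peaks at the ceiling cannot be ranked among themselves by p. Read counts behind the p-values were not analysed here.

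Peak length was a median of 72.0 nt for V5 over input and 67.0 nt for FLAG over input, and single members ran from 2 to 359 nt. Some members abut others, and such neighbours are separate rows of the deposited lists. Members near the edge of the rule were like the rest. The 183 V5 members over input whose nearer end lay 3 to 5 nt from a junction had a median of 3.48, and the 884 that lay over 30 nt from one had 3.58. For FLAG over input, the corresponding medians were 3.59 in 160 members and 3.58 in 791.

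Exon length was compared with the positions that the rule permits. For each member, every window of its own length in its own transcript that would also have met the rule was listed, and the share of such windows in each exon class was averaged over members. The share of members in long coding exons was slightly below that of permitted windows in all 4 lists. Of the V5 members over input, 632 of 1724 (36.7%, Wilson interval 34.4 to 39.0%) were in coding exons of over 300 nt, where permitted windows gave 39.0%. Of the FLAG members over input, 542 of 1604 (33.8%, 31.5 to 36.1%) were in such exons, against 36.2%. The gap was in the same direction over the empty vector IP, with 27.8% against 30.8% for V5 and 28.3% against 34.4% for FLAG. The last of these was the widest gap, and its interval of 24.2 to 32.8% did not reach the permitted share. Over input, the permitted share lay at the upper end of the V5 interval and just above the FLAG interval.

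**Figure D1:**
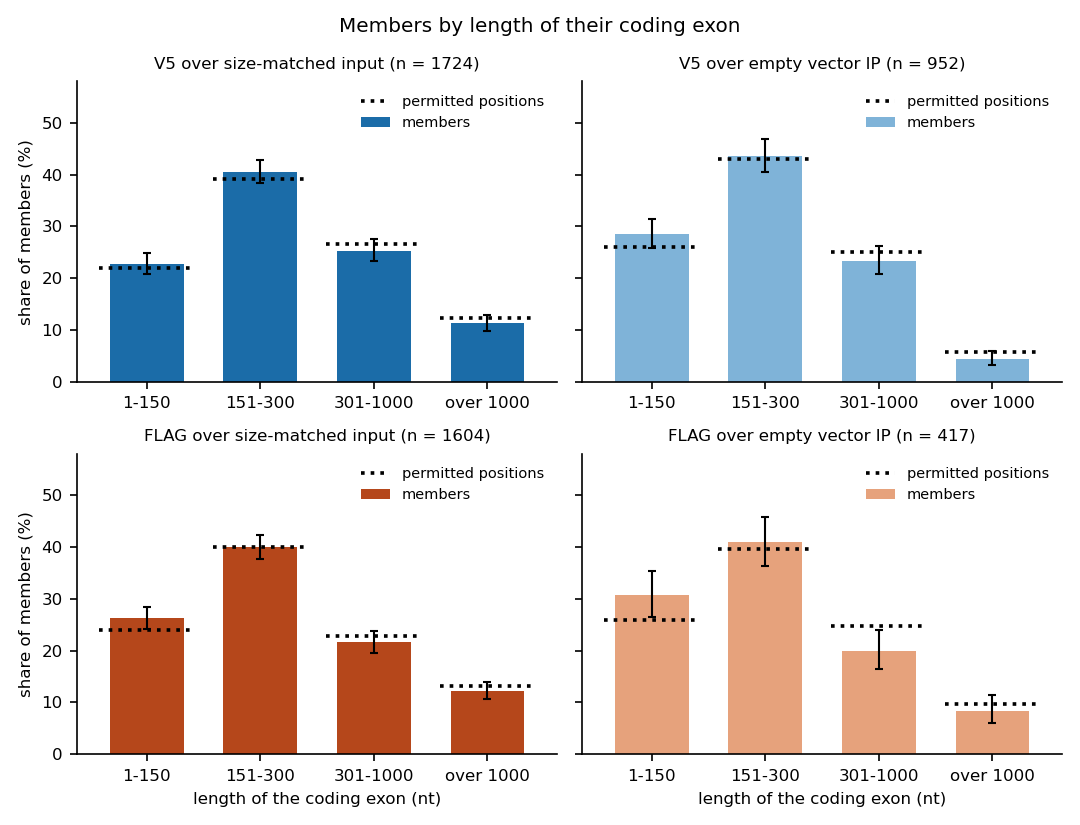
Share of members (%, vertical axis) by length of their coding exon (nt, horizontal axis) in the 4 lists. Bars are members, error bars 95% Wilson intervals and dotted lines the share among permitted positions; the lines run close to the bars in every class, with exons of 301 to 1000 nt in FLAG over the empty vector IP the widest gap (19.9% against 24.8%).

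The most used class in every list was the coding exon of 151 to 300 nt, which was also the largest class of permitted windows. It held 40.5% of V5 members and 40.0% of FLAG members over input, against 39.1% and 40.0% of permitted windows. The median coding exon was 216 nt for V5 and 201 nt for FLAG over input, and 191 nt in both lists over the empty vector IP. Enrichment hardly moved with exon length: across members, Spearman's rho was 0.04 for V5 over input (n = 1724) and 0.02 for FLAG over input (n = 1604). These are descriptions across peaks that share libraries and, in many genes, a transcript.

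Members over input in coding exons of over 1000 nt were the least often also enriched over the empty vector IP. These paired lists share their IP libraries, so the overlap is not an independent repeat. In V5, 705 of 1724 members over input (40.9%) shared 1 nt or more with a peak over the empty vector, where all 6605 peaks of the list gave 36.0%. Among peaks with a log2 value of at least 4 the share was 65.4% of members and 56.4% of all peaks, and with the highest peak of each gene alone it was 32.5% and 29.8%. By exon length, the share was 47.6% in coding exons of up to 150 nt (187 of 393), 43.8% in those of 151 to 300 nt, 40.3% in those of 301 to 1000 nt and 18.5% in those of over 1000 nt (36 of 195, Wilson interval 13.6 to 24.5%). In FLAG, 391 of 1604 members over input (24.4%) met a peak over its empty vector control, against 27.9% of all peaks. Among FLAG peaks with a log2 value of at least 4 the share rose to 56.9% of members and 55.7% of all peaks, so the direction of this difference changed with the limit. By exon length, the share was 29.3% in the shortest class, 24.0% in the next 2 and 15.8% in exons of over 1000 nt (31 of 196, interval 11.4 to 21.6%). The lowest share was thus in the longest exons for both tags, and the interval of that class did not overlap that of the shortest class in either. In FLAG it did overlap the intervals of both middle classes. The difference between classes was not tested, because peaks of 1 exon are not independent.

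In the other direction, 673 of 952 V5 members of the empty vector list (70.7%) met a peak over input, below the 76.6% of all peaks in that list. In FLAG, 383 of 417 did (91.8%), where all peaks gave 90.5%. The V5 share was below the FLAG share for members and for all peaks alike, so this contrast between the lists was not particular to members.

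Position along the CDS was compared in the same way. Each CDS was cut into 5 equal parts, and a member was placed by its midpoint. In V5 over input, 422 of 1724 members (24.5%, Wilson interval 22.5 to 26.6%) lay in the part next to the start codon, where permitted windows gave 19.5%. In V5 over the empty vector IP it was 218 of 952 (22.9%, 20.3 to 25.7%), against 19.4%. In FLAG over input it was 339 of 1604 (21.1%, 19.2 to 23.2%), against 19.4%, and in FLAG over the empty vector IP 79 of 417 (18.9%, 15.5 to 23.0%), against 19.0%. Both V5 intervals lay above the permitted share and both FLAG intervals included it. Whether the tags differ from each other was not tested.

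The part of the CDS next to the stop codon showed no such excess. It held 19.4% of V5 and 20.0% of FLAG members over input, where permitted windows gave 19.3% and 19.5%. In V5 over the empty vector IP it held 16.1% (13.9 to 18.5%), below the permitted 19.5%. The first coding exon followed the 5′ part, with 26.0% of V5 members over input against 21.5% of permitted windows, and 21.3% against 19.1% for FLAG. Across all members, enrichment and position gave a Spearman's rho of -0.00 for V5 and -0.02 for FLAG over input. With a higher limit on enrichment the share next to the start codon was larger in all 4 lists, but no interval was computed at that limit. At a log2 value of at least 4, that part held 28.1% of V5 members over input, against 18.6% of permitted windows. In V5 over the empty vector IP it was 28.7% against 19.1%. FLAG gave 23.8% against 18.7% over input, and 22.0% against 18.4% over the empty vector IP (n = 100). That last share lay inside the interval for all members of its list (15.5 to 23.0%). With the highest member of each gene alone, the same list gave 15.5% against 19.0%. The median next to the start codon was the highest of the 5 parts in V5 over the empty vector IP (3.74), FLAG over input (3.65) and FLAG over the empty vector IP (3.63). In V5 over input it was 3.58, against 3.59 in the fourth part.

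**Figure D2:**
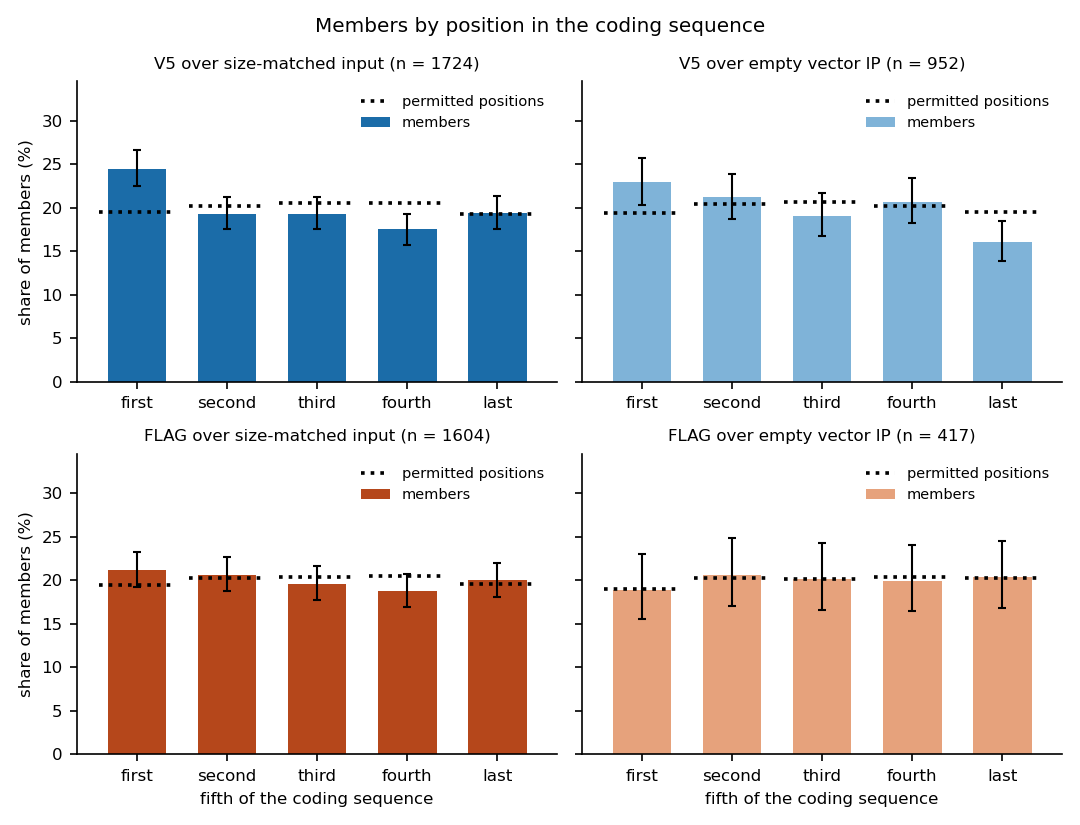
Share of members (%, vertical axis) in each of 5 equal parts of the CDS from the start codon to the stop codon (horizontal axis) in the 4 lists. Bars are members, error bars 95% Wilson intervals and dotted lines permitted positions; the bar nearest the start codon clears its line in both V5 lists (24.5% and 22.9%) and not in FLAG over the empty vector IP (18.9%).

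V5 peaks met FLAG members at the highest rate next to the start codon. V5 and FLAG were separate transfections with separate libraries. Of 1724 V5 members over input, 851 (49.4%) overlapped a FLAG peak over input, against 54.0% of all V5 peaks. Of 1604 FLAG members, 886 (55.2%) overlapped a V5 peak, against 55.8% of all FLAG peaks. Among FLAG members in the part of the CDS next to the start codon the share was 221 of 339 (65.2%, Wilson interval 60.0 to 70.1%), and in the other parts it ran from 50.7 to 56.1%, and the difference was not tested. For V5 members met by a FLAG peak the same 5 shares ran only from 46.3 to 52.6%. V5 members thus overlapped the other tag a little less often than all V5 peaks did, while the share for FLAG members was near that of all FLAG peaks.

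The bases under members were poor in A and rich in G. Mean A content was 18.0% in V5 members over input and 19.1% in FLAG members over input, against 22.4% and 22.7% in permitted windows. Mean GC content was 61.7% (SD 10.1 over members) against 57.7% for V5, and 60.2% (SD 10.1) against 57.4% for FLAG. FLAG members over the empty vector IP were the least shifted, at 57.8% against 56.8%. Among the 16 dinucleotides, CG, GC and GU had the highest ratios to the CDS of the same genes in V5 over input (1.35, 1.27 and 1.25), and AA the lowest (0.537). In FLAG over the empty vector IP the order was headed by GU (1.26) and AA was again the lowest (0.680). The GU excess held at a similar size in all 4 lists, from 1.22 to 1.26, and so did the smaller excess of UG, from 1.11 to 1.15.

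The GC and GU shifts were smaller against windows of the same coding exon than against the whole CDS. Same-exon windows include the member itself and windows that overlap it, so a smaller gap is partly built in. These shifts therefore cannot be divided between the exon and the place within it. The same limit holds for the other comparisons with the same exon. Against permitted windows of the same coding exon, the GC gap of V5 members over input was 1.80 percentage points (61.7% against 59.9%), and against the whole CDS it was 4.01. For GU, V5 members over input had 5.97% of dinucleotides, against 5.19% in the same exon and 4.69% across the CDS. In FLAG members over input the GU gap was 0.712 percentage points within the exon and 1.33 against the CDS. FLAG members over the empty vector IP kept a GU gap within the exon (5.98% against 5.32%), while their GC content was nearly that of the exon (57.8% against 57.7%).

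The encoded residues moved with the bases. Cysteine codons were 2.97% of whole codons under V5 members over input, against 2.15% in the same CDSs, a ratio of 1.38. For FLAG over input the cysteine ratio was 1.30 and the valine ratio 1.23, and both residues have codons with G and U. Lysine was the lowest of the 20 residues in V5 over input, with a ratio of 0.592, and asparagine in FLAG over input, with 0.652. Lysine and asparagine have codons that begin with AA, the dinucleotide that was the lowest in every list.

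Members were predicted to be more paired than permitted windows. Mean pairing probability, computed on the spliced mRNA, was 0.570 for V5 and 0.563 for FLAG over input, against 0.529 and 0.525 in permitted windows, and it was above the mean of its own permitted windows in 80.2% and 77.4% of members. Within the same exon the gap was smaller, at 0.0204 for V5 and 0.0196 for FLAG, but those windows partly overlap the member.

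The GU-loop:5nt-stem was found in 629 of 1724 V5 members over input (36.5%, Wilson interval 34.2 to 38.8%), against 23.2% of permitted windows. FLAG over input gave 579 of 1604 (36.1%, 33.8 to 38.5%), against 21.7%. The lists over the empty vector IP gave 33.8% each, against 22.6% for V5 and 21.1% for FLAG. Set against windows of the same coding exon, the shares were 36.5% and 29.2% for V5 over input, and 36.1% and 28.6% for FLAG over input. The excess thus stood in all 4 lists. For V5 over input it was 13.3 percentage points against the CDS and 7.31 against the same exon, whose windows partly overlap the member. A longer peak has more room for a match, and the share rose from 6.60% in V5 members of under 25 nt to 61.5% in those of 100 nt or more, with permitted windows at 3.81% and 40.3%. Members with and without the model had medians of 3.58 and 3.55 for V5 over input and of 3.54 and 3.59 for FLAG over input, so the sign of the difference changed with the tag.

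**Figure D3:**
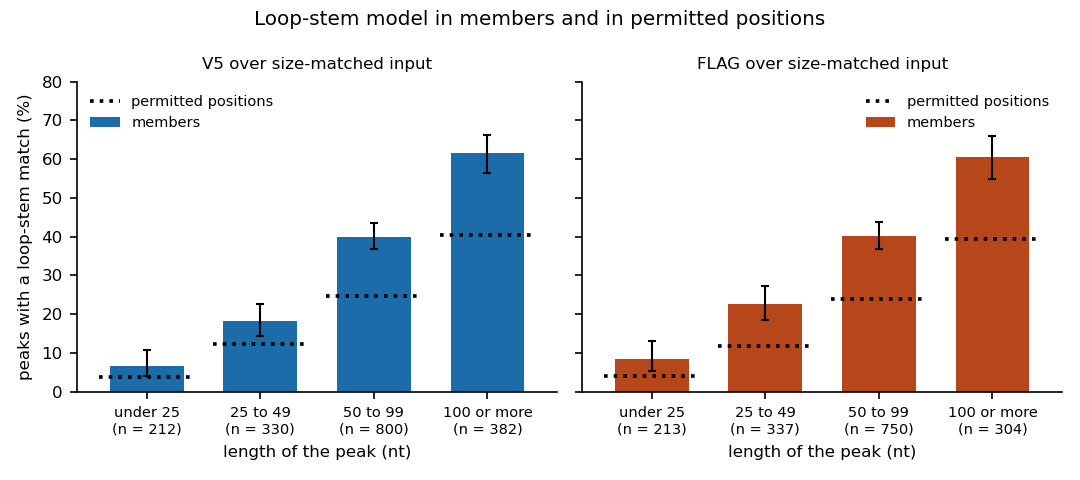
Share of peaks with a GU-loop:5nt-stem (%, vertical axis) by peak length (nt, horizontal axis) for V5 and FLAG over input. Bars are members, error bars 95% Wilson intervals and dotted lines permitted positions of the same length; every bar stands above its line, and both rise with length.

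GC content and the model also varied along the CDS. In V5 over input, members of the part next to the start codon had 65.9% GC, against 64.2% in windows of the same exons, and members of the other parts had from 59.6 to 61.3%. The loop-stem share there was 38.6%, against 32.0% in the same exons. The widest gap was in the middle of the CDS, with 37.8% against 27.8% for V5 and 40.1% against 30.0% for FLAG. Members near the start codon were thus the richest in GC and so were their exons, while their loop-stem share was close to the 39.3% of the next part of the CDS.

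Members of the 4 lists that overlapped were joined into 2739 loci. Of these, 1775 (64.8%) had members in 1 list and 135 (4.93%), in 108 genes, had members in all 4. All peaks of the 4 lists, joined in the same way, gave 9279 loci. Among those, 57.5% were in 1 list and 7.05% in all 4. A member locus counts only peaks that are themselves members, while a locus of all peaks counts any overlapping peak. The shares are thus not like for like, and no difference was read from them. At the 575 loci with members over both inputs, the V5 and FLAG values had a Pearson r of 0.50 and a Spearman rho of 0.41, a description across loci that lie partly in the same genes. The median FLAG minus V5 difference was -0.05, with quartiles of -0.45 and 0.37, and FLAG was the higher tag at 262 of the 575 loci (45.6%). The 135 loci in all 4 lists had higher medians, 4.28 for V5 and 4.33 for FLAG over input. Of these 135, 49 (36.3%) lay in coding exons of over 300 nt, against 31.7% of all loci, 40.9% of the loci over both inputs and 30.8% of those in 1 list. Next to the start codon lay 30 of the 135 (22.2%), against 22.1% of all loci.

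**Figure D4:**
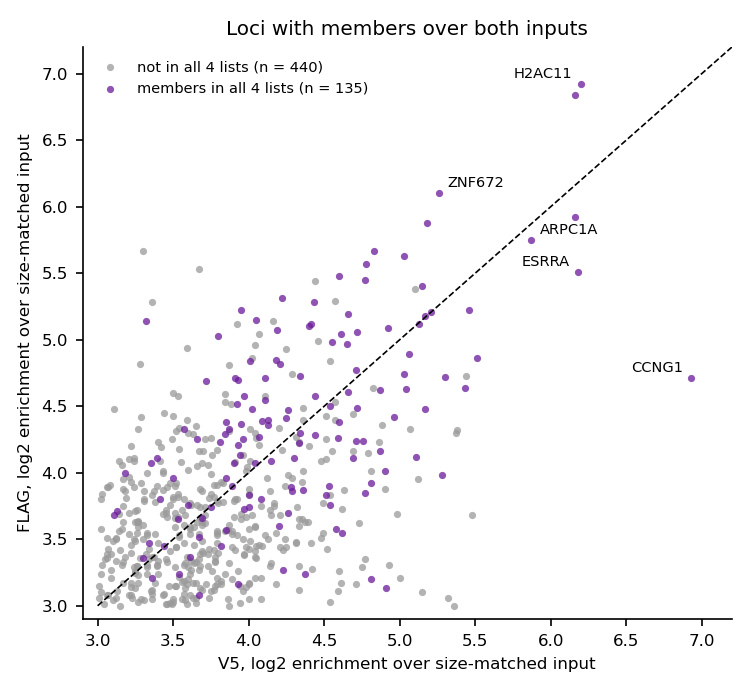
FLAG against V5 log2 enrichment over size-matched input at the 575 loci with members over both inputs; purple points are the 135 loci with members in all 4 lists, the dashed line marks equal values, and the 5 labelled genes have the highest means. CCNG1 lies farthest below the line (6.93 for V5, 4.71 for FLAG) and H2AC11 is highest for FLAG (6.92).

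At the most enriched loci, values are the highest member in each list, in the order V5 over input, V5 over empty vector, FLAG over input and FLAG over empty vector. H2AC11, a histone H2A gene, stood at 6.20, 6.30, 6.92 and 7.93 in its only coding exon (390 nt, chr6:27133316-27133411). It was the highest of all members in both FLAG lists. Many histone H2A genes resemble one another closely, so reads placed at H2AC11 may stem from other copies, and its rank is uncertain. ESRRA, which encodes the orphan nuclear receptor ERR alpha, stood at 6.18, 5.79, 5.51 and 4.81 in coding exon 5 of 6 (chr11:64315025-64315126). CCNG1, which encodes cyclin G1 and is a p53 target, stood at 6.93, 5.25, 4.71 and 4.26 in coding exon 1 of 5 (chr5:163439378-163439462). The CCNG1 value was the highest of any member in V5 over input, and 2.22 above its FLAG value.

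ARPC1A, a subunit of the Arp2/3 complex that nucleates branched actin, stood at 5.87, 4.61, 5.75 and 4.34 in coding exon 5 of 9 (chr7:99354041-99354110). MARS1, the cytoplasmic methionyl-tRNA synthetase, stood at 5.18, 5.06, 5.88 and 3.95 in a coding exon of only 117 nt (exon 8 of 21, chr12:57498195-57498259). At both loci the value over input exceeded that over the empty vector IP in both tags. QPRT, an enzyme of NAD synthesis, stood at 4.83, 4.32, 5.67 and 4.26 in coding exon 2 of 4 (chr16:29694668-29694742), with 72.0% GC. RPL8, a protein of the large ribosomal subunit, stood at 5.51, 6.13, 4.86 and 3.92 in a coding exon of 142 nt (chr8:144791777-144791847). ECI1, a mitochondrial enzyme of fatty acid oxidation, stood at 5.30, 5.49, 4.72 and 3.75 in a coding exon of 114 nt (chr16:2251334-2251425), and its locus was the most GC-rich of those named, at 85.9%. In RPL8 and ECI1 the V5 values were above the FLAG values.

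The longest coding exon with a locus in all 4 lists belonged to SPEN, a transcriptional corepressor with a role in X inactivation. Its exon of 8176 nt held a locus at 4.21, 3.95, 4.82 and 3.11 (coding exon 11 of 15, chr1:15934330-15934529). ZNF74, a KRAB zinc finger gene, stood at 4.20, 3.63, 3.60 and 3.52 in an exon with 1589 coding nt (chr22:20406302-20406506). TTLL4, a tubulin polyglutamylase, stood at 4.34, 3.95, 4.30 and 5.41 in an exon with 1487 coding nt, near its start codon (chr2:218737694-218737867). H6PD, the hexose-6-phosphate dehydrogenase of the endoplasmic reticulum, stood at 4.13, 3.19, 4.40 and 3.35 in an exon with 1358 coding nt (chr1:9263514-9263637). ZNF672, a zinc finger gene with 1 coding exon of 1356 nt, stood at 5.26, 6.10, 6.10 and 5.26 (chr1:248847864-248848025). TTLL4 had its highest value in FLAG over the empty vector IP, where SPEN and H6PD were among their lowest, so long exons showed no common order of the lists.

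TRIM28, the KAP1 corepressor that KRAB zinc finger proteins recruit, held 65 members at 11 loci in 7 of its 17 coding exons, and 6 of these loci had members in all 4 lists. In its first coding exon the top locus stood at 5.03, 5.27, 5.63 and 4.61 (chr19:58544925-58545093). In coding exon 3, of 133 nt, a pair of abutting loci stood at 5.15, 5.82, 5.40 and 5.38 (chr19:58545827-58545876) and at 5.13, 5.22, 5.12 and 5.11 (chr19:58545774-58545826). The values of the second of this pair lay within 0.11 of each other across all 4 lists. The middle of the CDS, from coding exon 6 to coding exon 12, held no member in any list. Neither did the second coding exon or coding exons 16 and 17. Peaks that touch a splice junction are not members, so these exons may still hold peaks of that kind.

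EEF2, the translation elongation factor that moves the ribosome along the mRNA, had the most loci. Its 30 loci held 95 members, 37 in V5 over input, 33 in V5 over the empty vector IP, 25 in FLAG over input and 0 in FLAG over the empty vector IP. They lay in 10 of 15 coding exons and none reached 5: the highest was 4.93, in V5 over the empty vector IP, and the highest FLAG value was 3.77. TRIM28 had fewer loci and members in all 4 lists, while EEF2 had more loci and lower top values in 3 of the 4. Abutting members were not joined, so the number of loci depends partly on how a stretch was cut into peaks. In V5 over the empty vector IP, EEF2 members ran without a break from nt 418 to nt 597 and counted as separate loci. Loci with touching members merged were not counted. No EEF2 member began before nt 305 of the CDS, and none lay between nt 755 and nt 1197.

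**Figure D5:**
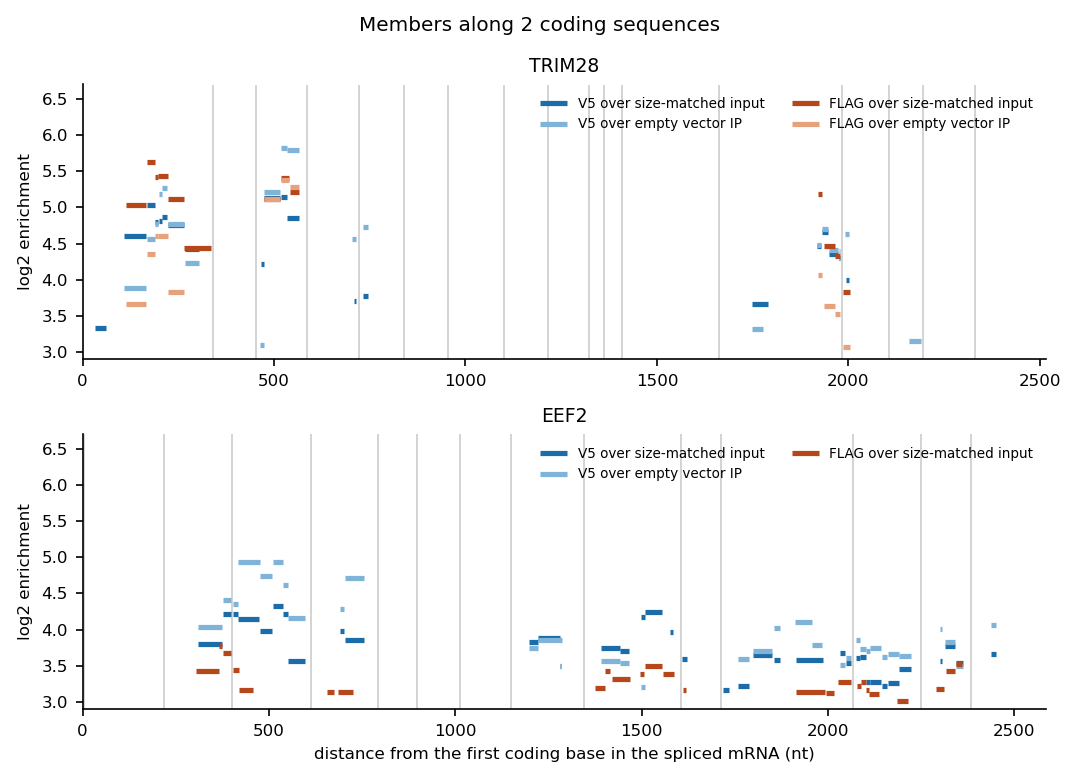
Members along the CDS of TRIM28 and EEF2 (horizontal axis, nt from the first coding base in the spliced mRNA) with their log2 enrichment (vertical axis, 1 bar per member, coloured by list; grey lines mark splice junctions). TRIM28 members lie in a 5′ cluster and in a second cluster that stops at 87.4% of the CDS. EEF2 members run from nt 305 to nt 2451 with a gap between nt 755 and nt 1197, and with no member in FLAG over the empty vector IP.

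RPL8 followed with 15 loci and 62 members in all 5 of its coding exons, which was 19.5 loci per kb of CDS against 11.7 in EEF2. These rates also count abutting loci separately. EEF1G, a subunit of the complex that reloads elongation factor 1A, had 12 loci and 49 members, 3 of the loci in all 4 lists, with a highest value of 5.53 in V5 over the empty vector IP and 5.45 in FLAG over input. HUWE1, a very large E3 ubiquitin ligase with 81 coding exons, had 13 loci and 20 members, or 0.991 loci per kb, and none in its longest coding exon of 601 nt. HUWE1 had no locus in all 4 lists and no member above 4.13.

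Among p53 targets and stress genes, AEN, a nuclease induced by p53, had 4 loci and all 4 were in every list, in each of its 3 coding exons. Its top locus stood at 5.21, 4.83, 5.21 and 4.31 (chr15:88626462-88626745). ATF3, a stress-induced transcription factor, had 3 loci, of which the pair in coding exon 1 was in all 4 lists, with values from 3.13 to 4.21. CDKN1A, the cell cycle inhibitor p21, had 2 loci in its first coding exon, and 1 was in all 4 lists at 4.54, 4.63, 3.76 and 3.22 (chr6:36684250-36684401). CDIP1, a p53-regulated apoptosis gene, had 1 locus with members in the FLAG lists only, at 4.62 over input and 3.77 over the empty vector IP (chr16:4512654-4512677). CDIP1 had no V5 member, and the other 3 genes had members in every list. Peaks in untranslated regions are not members, and the study described dSpCas9 binding to CDIP1 in its 5′ untranslated region.

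Gene groups were described by counts, and all genes with any peak serve as the comparison: 1499 of 3472 such genes (43.2%) held a member. Cytoplasmic ribosomal protein genes held one in 44 of 53 (83.0%), with 384 members at 153 loci, of which 14, in 9 genes, were in all 4 lists. Their exons were short, with a median of 130 nt under a member and 2.34% of members in coding exons of over 300 nt. The highest values were 5.79 in RPL15 (V5 over input) and 5.12 in RPS20 (FLAG over input). Median enrichment was 3.66 and 3.70 in the same lists, against 3.56 over all members in each.

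Histone genes held a member in 25 of 35 (71.4%), with 147 members, and 96.6% of these lay in coding exons of over 300 nt, as most histone genes have a single exon. All 4 of their loci in every list belonged to H2AC11. ZNF genes held a member in 33 of 60 (55.0%), and 91.7% of their 72 members lay in coding exons of over 300 nt. The part of their CDS next to the start codon held 6.94%. Permitted windows were not computed by gene group, so whether that share is low is not known. EIF and EEF translation factors held a member in 9 of 27 (33.3%), yet had 175 members, 144 of them in EEF2 and EEF1G. Many histone genes have close copies within their own family and ribosomal protein genes have many processed pseudogenes, so placing their reads is uncertain.

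Of the remaining groups, chaperones and heat shock proteins held a member in 12 of 30 genes (40.0%), proteasome subunits in 8 of 18 (44.4%), DEAD/DEAH box helicases in 11 of 19 (57.9%) and solute carriers in 31 of 67 (46.3%). Tubulins had 2 members, in 2 of 3 genes, both in FLAG over input. PSMB5, a catalytic proteasome subunit, reached 5.03 in V5 over input and 4.74 in FLAG over input. Expression levels were not analysed here.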

How the data were processed

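The values were the authors' own, in 4 deposited lists of peaks with both replicates merged. Per the labels, reads were trimmed with cutadapt 1.14, aligned to GRCh38 with STAR 2.4.0i and handled with UMI-tools 1.0.0 and SAMtools 1.6. For each peak the authors deposited the log2 fold of IP over control reads and the −log10 p-value. The 4 lists hold no peak below 3.00 on the log2 scale or 3.01 on the −log10 scale. Members and transcripts came from GENCODE version 44, and 81 members that lay in coding exons of 2 genes were given to 1. Base pairing on spliced mRNAs came from ViennaRNA 2.7.2 (RNAplfold, window and span 70), and a loop-stem needed a U paired with probability under 0.7 and 5 stem bases over 0.5. Members were joined into loci when they overlapped by 1 nt or more, so members that only abut stayed separate. Members were set beside permitted windows and all peaks of the list, with 95% Wilson intervals, and 117 alternatives were tried. Statistics used Python 3.11.15, numpy 2.4.6 and scipy 1.17.1, and the scripts' rules were tested on made-up transcripts. Named loci were the 10 with the highest mean over both inputs among those in all 4 lists (1 per gene), the 5 in the longest coding exons, the 5 highest in exons of up to 150 nt, the 5 genes with the most loci, and CDIP1, ATF3, CDKN1A, AEN and TRIM28. Of the genes this rule selects, 1 is not reported here. RPL15, RPS20 and PSMB5 were named after their values were seen. The members and lists were chosen with earlier results of these data known.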

Additional observations from a re-analysis of the deposited data

How the results depend on the processing

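No paired analysis was possible because each peak has 1 value for both replicates, and for the same reason no replicate could be left out. Of 117 alternatives, 77 moved a result by less than its interval, spread or 1.5 times. Raising the log2 limit to 4 left 416, 286, 390 and 100 members (V5 over input and over empty vector, then FLAG likewise). It moved the share next to the start codon to 28.1% and 28.7% in V5 and 23.8% in FLAG over input, the share next to the stop codon in V5 over empty vector to 13.6%, the share in coding exons over 300 nt to 41.0% and 40.0% in FLAG, the loop-stem share to 27.6% in V5 over empty vector and 33.6% in FLAG over input, the overlap of V5 members with FLAG to 75.5% (76.4% of all V5 peaks at that limit), and the overlap with the empty vector lists to 65.4% (V5) and 56.9% (FLAG), where all peaks at that limit gave 56.4% and 55.7%. With 1 member per gene, the loop-stem shares were 41.8%, 43.0%, 42.7% and 40.1%, the FLAG share in long exons was 36.3%, and these 3 overlaps were 45.9%, 32.5% and 21.9%, where the highest peak of each gene among all peaks gave 50.2%, 29.8% and 27.6%. For coding exons over 300 nt, genes with at least 2 coding exons gave 31.4%, 23.2%, 29.5% and 23.9%, members more than 10 nt from a junction 45.2%, 35.4%, 40.9% and 34.3%, and whole exon length 44.3%, 35.6%, 40.2% and 35.0%. A loop-stem with U under 0.5 and stem over 0.7 was found in 7.08%, 7.14%, 7.29% and 7.67%, and an overlap of 50% of the member left 44.3% of V5 members. On which side of the permitted share a result lay did not change for long exons, nor for the loop-stem where permitted windows were computed, nor for the start-codon share in V5 and in FLAG over input. In FLAG over empty vector, 3 of 5 alternatives changed the side of the start-codon share, and the stop-codon share changed side in 3 lists. The cause of these moves was not tested. Depth is unknown, so low values were not read as absence.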
